A study of Mus musculus with 4 samples.

Results

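Binding of CTCF and RAD21 in mouse gastruloids was examined around 10 genes of the pluripotent state and of early progenitors: Pou5f1, Nanog, Klf4, Esrrb, Zfp42, Dppa5a, Dppa3, Lin28a, Lin28b and Sall4. They were chosen by name, out of the 21883 protein-coding genes of the annotation used, and the peaks counted are those of the deposited lists whose summit lies in the gene body or within 50 kb of it. Gastruloids are aggregates of embryonic stem cells that lengthen and form an anterior to posterior axis in culture. They were pooled and fixed at 96 h after aggregation, and chromatin was studied by ChIPmentation, an immunoprecipitation in which sequencing adapters are inserted by a transposase while the chromatin is on beads. Wild-type gastruloids gave 1 CTCF library. The first mutant, with the HoxB alleles Del/Del(i9-13) and the insertion Ins(CBS5-10), is called InsCBS5-10 and gave 1 CTCF library and 1 RAD21 library. The second mutant has the same alleles and in addition Del(CBS7-10), is called DelCBS7-10 and gave 1 CTCF library. In both mutants 1 copy of the HoxB cluster is deleted, and the other copy lacks the i9-13 interval and carries inserted CTCF binding sites, of which CBS7-10 are removed again in DelCBS7-10. All edits are on chromosome 11, and none of the 10 genes is on that chromosome. A further RAD21 list comes with the series but belongs to none of the 4 samples. Its peak names read RAD21, wild type and 96 h, and it is called the additional RAD21 list. Each group is a single library, so no difference between genotypes could be held against the spread of replicates, and none was tested.

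CTCF is a zinc-finger protein that binds DNA and halts the cohesin ring, of which RAD21 is a subunit, while the ring extrudes chromatin loops. Sites bound by both proteins often mark the feet of loops and the borders of contact domains. Pou5f1 (also called Oct4), Nanog, Klf4, Esrrb and Sall4 are transcription factors that maintain the naive state of embryonic stem cells. Most of this network is shut down as cells leave pluripotency and gastrulate. Zfp42 (Rex1) and Dppa5a are classical markers of the naive state, and Dppa3 (Stella) marks the naive state and germ cells. Lin28a and Lin28b bind RNA and block maturation of the let-7 microRNAs, and both stay active longer, in progenitors of the trunk and tail, as does Sall4. The peak lists measure protein binding and hold no expression values, so the level of these genes, and the cell types in the aggregates, were not analysed here.

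The wild-type CTCF list held 47931 peaks, and the lists of InsCBS5-10 and DelCBS7-10 held 34499 and 36589. The RAD21 lists held 19610 peaks in InsCBS5-10 and 59484 in the additional list. Read depth is unknown from peak lists, so "not called" means only that a list holds no peak at that place, and binding below the threshold may be there. The value given for a peak is the fold enrichment that the authors' peak caller assigned, a ratio of the summit's signal to background within that library. It describes and ranks peaks within a list, and a lower value in another list is not a measured loss. A percentile is the share of a list's peaks with the same fold enrichment or a lower one. Exact Clopper-Pearson 95% intervals cover counting error only. For comparison, the same counts were made over 20018 protein-coding genes outside chromosomes 11 and Y.

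Sequences could be shown for the promoters where the peaks reached them. The RefSeq promoter table (GRCm38.p6) has entries for 7 of the 10 genes, Sall4, Dppa3 and Dppa5a being the others, and these 7 have 10 start sites with a window of 250 bases before and 50 bases after the start. CTCF of any list overlapped 1 of the 10 windows, against 9.46% of 19483 windows of coding genes. The additional RAD21 list overlapped 3 of 10, against 39.0%, and RAD21 of InsCBS5-10 overlapped 0 of 10, against 1.89%. The shares among the 10 windows have intervals of 0.253% to 44.5%, 6.67% to 65.2% and 0% to 30.8%. The 250 bases before the 3 start sites that a peak reached follow, 5′ to 3′ on the gene's strand. In the Pou5f1 sequence (chr17:35508557-35508806, plus strand) capitals mark the bases under the CTCF peak of InsCBS5-10. In the Esrrb sequence (chr12:86421394-86421643, plus strand) and the Lin28a sequence (chr4:134018817-134019066, minus strand) capitals mark bases under a peak of the additional RAD21 list, which covers all of them.
Pou5f1, internal start: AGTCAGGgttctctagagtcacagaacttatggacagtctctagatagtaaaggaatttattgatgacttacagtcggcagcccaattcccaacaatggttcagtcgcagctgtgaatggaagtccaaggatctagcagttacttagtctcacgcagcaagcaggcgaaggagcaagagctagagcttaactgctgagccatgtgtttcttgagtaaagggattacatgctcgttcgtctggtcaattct
Esrrb, second start: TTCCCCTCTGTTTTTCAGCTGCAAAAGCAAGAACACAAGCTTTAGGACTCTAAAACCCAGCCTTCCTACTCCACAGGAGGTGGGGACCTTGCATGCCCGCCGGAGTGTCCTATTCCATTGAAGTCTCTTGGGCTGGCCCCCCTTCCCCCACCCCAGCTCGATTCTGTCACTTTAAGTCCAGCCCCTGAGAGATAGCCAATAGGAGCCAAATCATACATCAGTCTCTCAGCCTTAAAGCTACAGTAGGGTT
Lin28a: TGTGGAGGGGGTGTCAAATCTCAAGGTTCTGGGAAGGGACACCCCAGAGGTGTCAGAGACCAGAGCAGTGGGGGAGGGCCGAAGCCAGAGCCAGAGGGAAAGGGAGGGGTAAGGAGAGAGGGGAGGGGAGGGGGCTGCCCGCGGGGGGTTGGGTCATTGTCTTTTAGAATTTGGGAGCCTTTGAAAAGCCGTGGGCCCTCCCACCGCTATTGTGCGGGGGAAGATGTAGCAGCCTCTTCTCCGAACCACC

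At the internal Pou5f1 start the CTCF peaks had a fold enrichment of 4.82 in InsCBS5-10 and 4.41 in DelCBS7-10, the additional RAD21 list had a peak of 4.29, and wild-type CTCF and RAD21 of InsCBS5-10 had none. The CTCF peaks covered only 7 and 27 of the 250 bases printed, and the RAD21 peak 231. Of 32849 promoter windows of other genes in the table, 26 share a stretch of 25 bases with this sequence on either strand, and 0 share one with the Esrrb sequence. Whether repeated sequence had a part in the Pou5f1 peaks was not tested. RAD21 in the additional list had a fold enrichment of 4.04 at the second start of Esrrb and 2.78 at the start of Lin28a, both without CTCF. A core of the CTCF motif, read as CC, any 3 bases, AG, any 2 bases and GGC, was searched on both strands. They were found in 0 of the 10 windows of these genes, against 9.94% of all coding promoter windows and 30.9% of the 1843 windows that a CTCF peak overlaps. No match says only that these letters are not in these windows.

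Across the 10 genes the peaks formed 60 separate CTCF sites, where peaks of different lists that overlap by at least 1 bp count as 1 site. Near these genes the CTCF lists had 51 peaks (wild type), 39 (InsCBS5-10) and 43 (DelCBS7-10), and the RAD21 lists had 22 in InsCBS5-10 and 77 in the additional list. Per megabase this was 38.7, 29.6, 32.7, 16.7 and 58.5 peaks, against 24.0, 17.8, 18.9, 9.99 and 30.2 near all genes compared. The windows of the 10 genes cover only 1.32 Mb in 9 separate regions, and these densities were given no interval. The median gene of the 10 had 6.5 CTCF sites and 4 in all 3 CTCF lists, against 5 and 3 for all genes, whose quartiles were 2 and 8 for all sites and 1 and 4 for shared ones. The spread among the genes was wide: Esrrb had 11 sites and Zfp42 had 2. Every one of the 10 had a CTCF peak in all 3 CTCF lists, against 83.2% of all genes, an interval of 69.2% to 100% for so few genes. RAD21 of InsCBS5-10 had a peak near 9 of 10, all but Zfp42, against 77.0% of genes. The interval of that share is 55.5% to 99.7%, and both intervals hold the share of all genes. The outermost wild-type CTCF peak taken in was 48.9 kb from Dppa5a, with a fold enrichment of 3.64, and the next one beyond the limit was 55.0 kb from Esrrb, with 4.23.

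**Figure D1:**
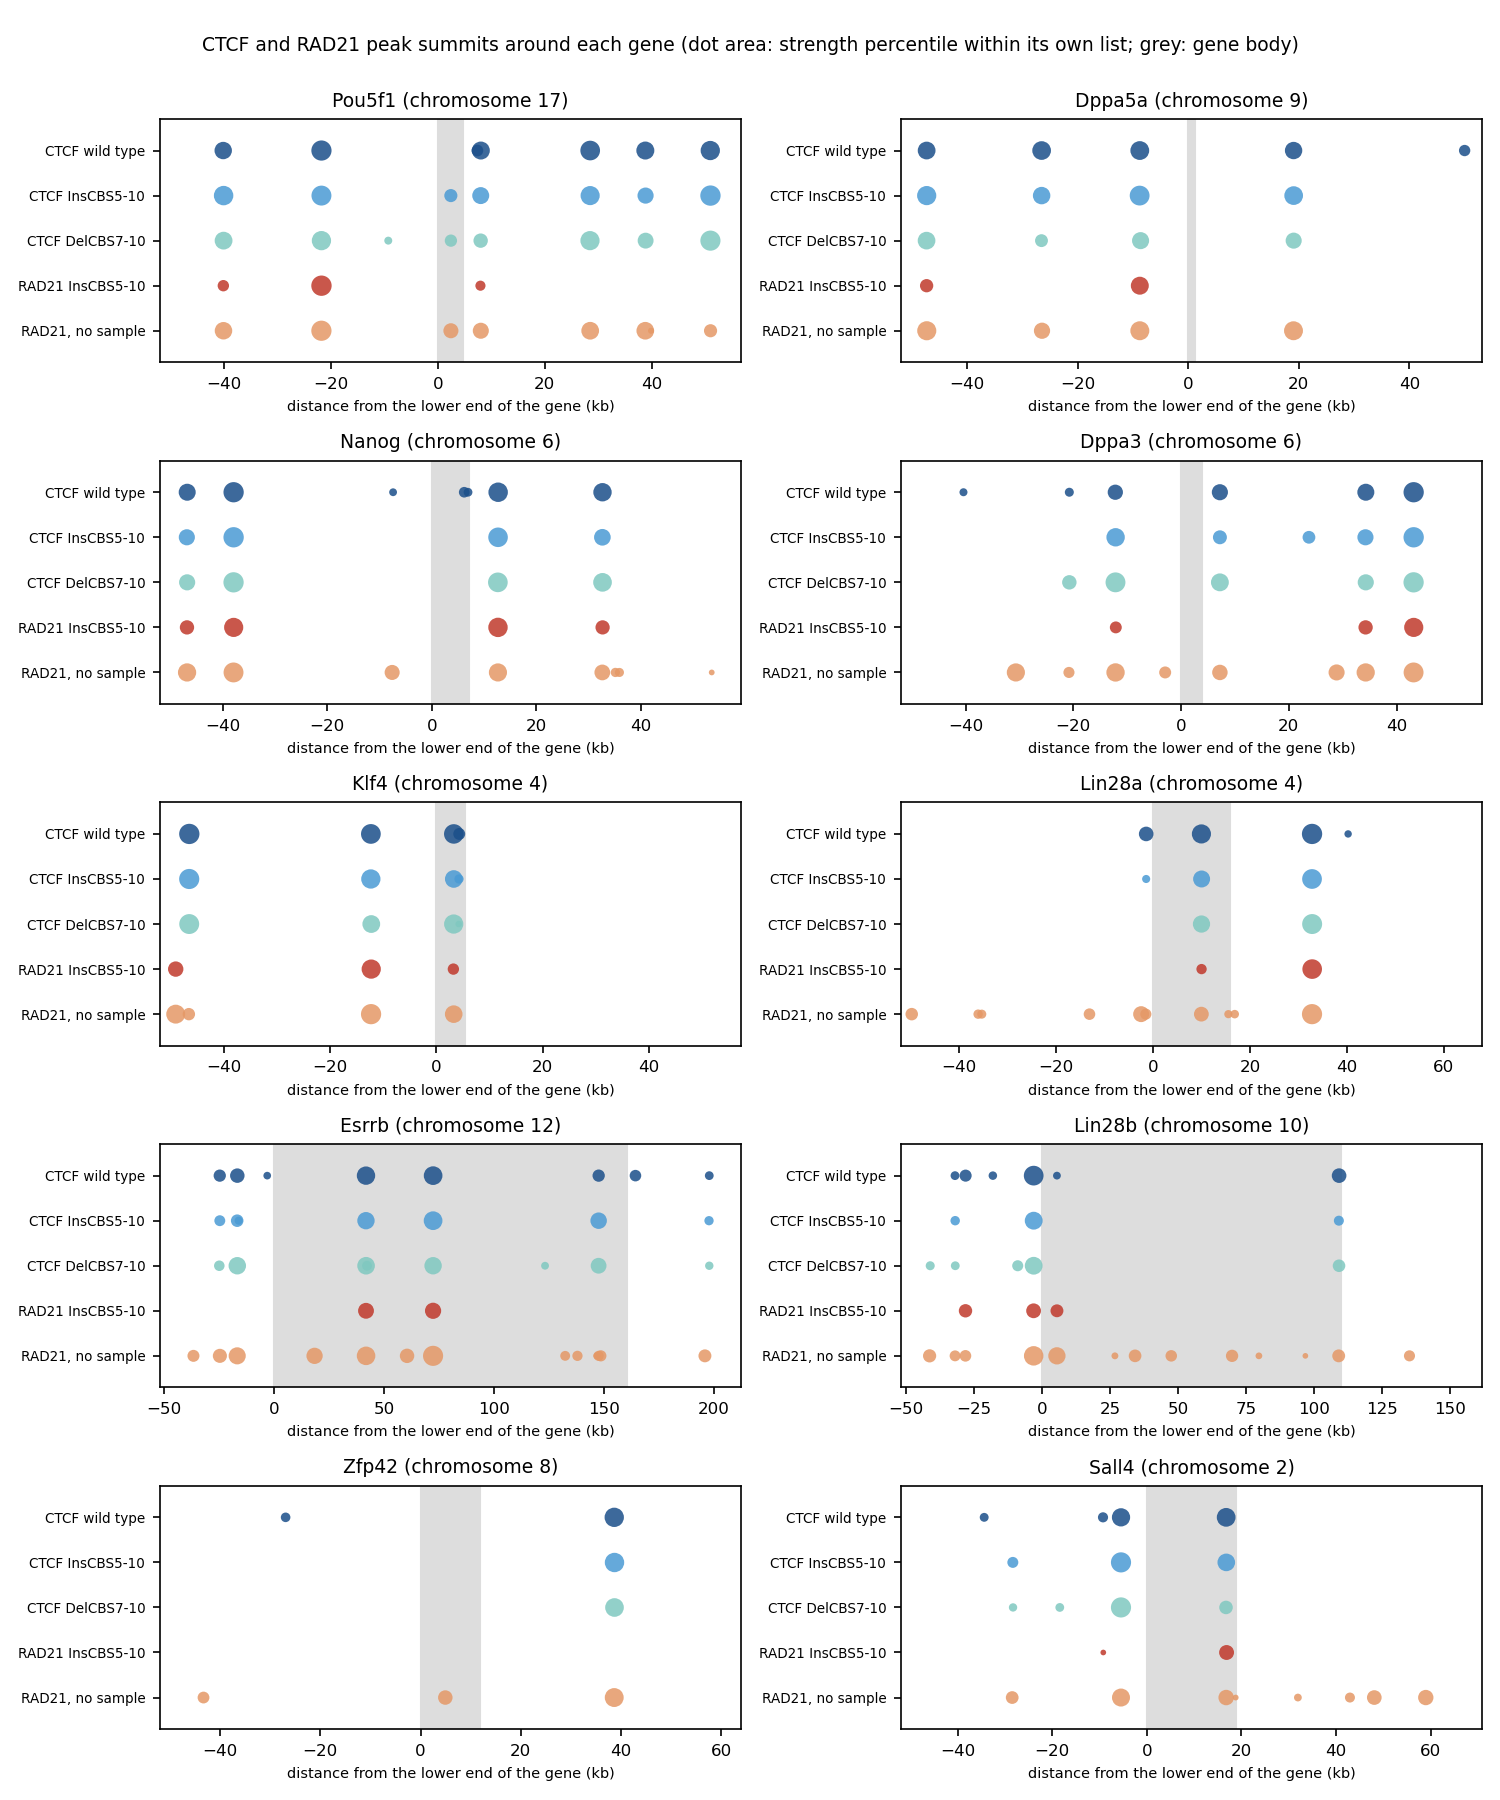
Summits of the peaks near each gene in the 5 lists. The x axis is the distance in kb from the end of the gene with the lower coordinate, the grey band is the gene body, each row is a list, and the dot area grows with the percentile of the peak in its own list. Large dots line up in all 3 CTCF rows, while most dots seen in 1 CTCF row are small, and Zfp42 has no dot in the row of RAD21 in InsCBS5-10.

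**Figure D2:**
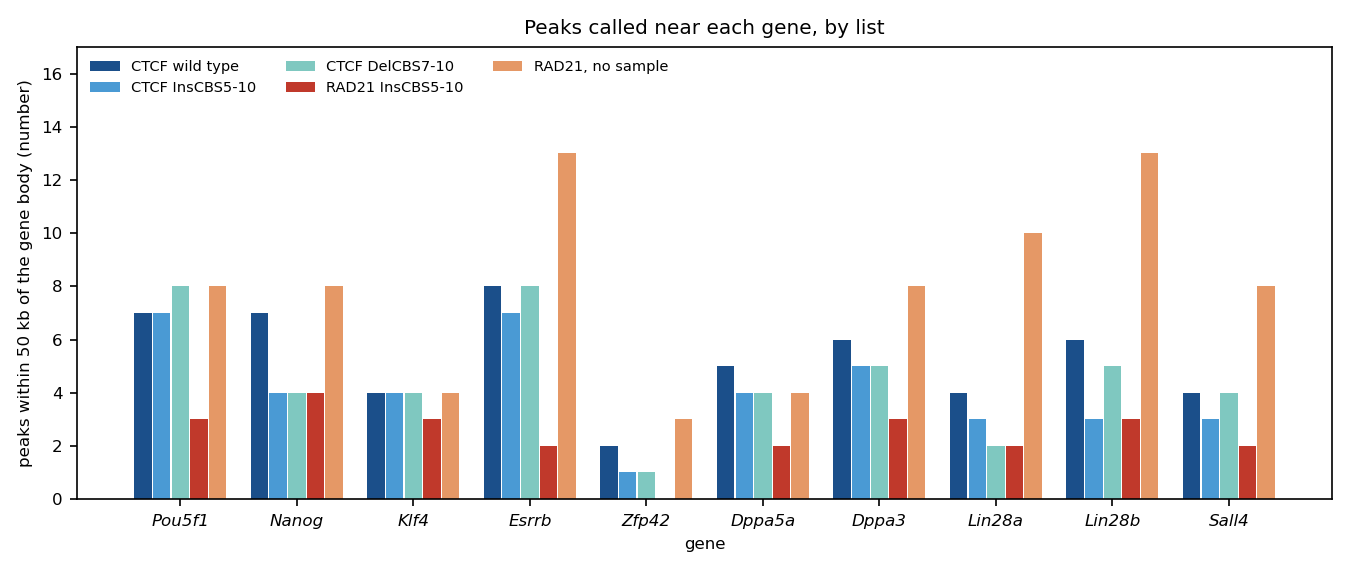
Number of peaks within 50 kb of each gene body, by list. Bars start at 0 and each bar is 1 list with 1 library. CTCF counts run from 1 to 8 and RAD21 of InsCBS5-10 from 0 to 4, and Esrrb and Lin28b have the highest bars of the additional RAD21 list, 13 each.

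Pou5f1 encodes the POU-domain factor at the head of the network (chr17:35506032-35510777). It had 8 CTCF sites, and 6 of these appeared in each CTCF list. The strongest in wild type lay 21.8 kb below the gene, toward lower coordinates, with a fold enrichment of 14.5 (wild type), 9.99 (InsCBS5-10) and 8.04 (DelCBS7-10). RAD21 there had 14.8 in InsCBS5-10, at the 99.3 percentile of its list, and 11.1 in the additional list. A site 40.1 kb below had CTCF at 8.12, 8.89 and 6.74 in the same order and RAD21 at 4.69 and 5.96, and one 9.3 kb below was called in DelCBS7-10 only, at 3.28. The nearest site above the gene, 3.3 kb away in Tcf19, had CTCF values of 8.85, 6.66 and 5.12 in the same order and weaker RAD21, at 4.29 and 4.82. Farther above, the sites at 23.8 kb in Psors1c2 and at 34.1 and 46.3 kb in Cdsn, the gene of the skin protein corneodesmosin, were called in all 3 CTCF lists and in the additional RAD21 list but not for RAD21 of InsCBS5-10. The site at 46.3 kb reached 12.7 for CTCF of InsCBS5-10, the 99.1 percentile, without a RAD21 call in that genotype. Thus the RAD21 calls of InsCBS5-10 were on the gene's lower side and at the first site above it.

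Nanog encodes a homeodomain factor (chr6:122707489-122714633), and Dppa3 lies below it on the same chromosome (chr6:122626424-122630271), so 2 sites between them belong to both windows. The stronger of these, 37.9 kb below Nanog and 39.3 kb above Dppa3, had CTCF at 15.3 (wild type), 12.7 (InsCBS5-10) and 10.9 (DelCBS7-10), at the 98.5, 99.1 and 98.4 percentiles of the lists. RAD21 there had 9.76 in InsCBS5-10 and 9.87 in the additional list. The other shared site, 46.8 kb below Nanog, had CTCF values of 7.64, 6.18 and 5.85 and RAD21 values of 5.90 and 6.83. Above Nanog, a site at 5.6 kb had CTCF at 11.5, 9.05 and 8.61 with RAD21 at 10.2 and 6.71, and a site at 25.5 kb in Slc2a3, which encodes a glucose transporter, had 9.44, 6.48 and 7.41 with RAD21 at 5.87 and 4.66. All 4 Nanog sites called in the 3 CTCF lists carried RAD21 in both RAD21 lists. The other 3 Nanog sites were called only in wild type, at 2.86, 3.43 and 3.02, and 2 of them lie inside the gene.

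Dppa3 protects DNA methylation in the early embryo. Beside the shared pair, its window had 2 sites called in all 3 CTCF lists. The site 12.2 kb below had CTCF at 5.88 (wild type), 7.66 (InsCBS5-10) and 9.06 (DelCBS7-10), the 52.9, 79.9 and 94.4 percentiles, with RAD21 at 4.87 and 6.97. The site 3.4 kb above had 6.74, 5.15 and 6.80 and RAD21 only in the additional list, at 4.48. A site in Gdf3, which encodes a TGF-beta family ligand of the early embryo, lay 20.7 kb below Dppa3. It was called in wild type (3.09) and DelCBS7-10 (5.14) but not in InsCBS5-10. Another 2 sites were called once, at 2.90 in wild type within Apobec1 and at 4.71 in InsCBS5-10 between genes.

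Klf4, a Krüppel-like zinc-finger factor (chr4:55527137-55532475), was the gene of the 10 with every site shared: 4 of 4 were called in all 3 CTCF lists. A site 46.5 kb below it had the highest wild-type CTCF value near these genes, 15.7, with 10.7 in InsCBS5-10 and 9.18 in DelCBS7-10. RAD21 of InsCBS5-10 was not called there, and the additional list had 3.48. A RAD21 peak without CTCF in any list lay 49.0 kb below Klf4, at 6.45 in InsCBS5-10 and 7.80 in the additional list. The site 12.3 kb below had CTCF at 12.3, 8.63 and 6.72 and RAD21 at 9.83 and 11.2. Of 2 sites inside the gene, the stronger had CTCF at 11.6, 7.05 and 8.00 with RAD21 at 4.68 and 6.04, and the weaker, 1.0 kb from the start, had 3.85, 3.59 and 3.0 with no RAD21 in either list. No CTCF site lay above Klf4 within 50 kb.

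Esrrb, an orphan nuclear receptor (chr12:86361117-86521628), is the longest of the 10 genes, and its window of 261 kb held 11 sites, 6 of them called in all 3 CTCF lists. The 2 strongest in wild type lie inside the gene. One lay 41.8 kb from the first start and 18.7 kb from the second. It had CTCF at 9.43 (wild type), 6.88 (InsCBS5-10) and 6.63 (DelCBS7-10) with RAD21 at 6.71 and 7.23. The other, 72.4 kb from the first start and 11.8 kb from the second, had 9.88, 7.95 and 6.51 with RAD21 at 6.93 and 10.6. These 2 were the only Esrrb sites with RAD21 of InsCBS5-10. Another site inside, 147.7 kb from the first start, had CTCF at 4.05, 6.37 and 5.69, the 32.1, 62.8 and 57.1 percentiles. RAD21 there was called only in the additional list, at 3.07. The sites below the gene at 24.7 and 16.8 kb and above it at 37.4 kb ranged from 3.02 to 6.54, and 5 sites were called in a single CTCF list, at 2.82 to 3.73.

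Sall4, a zinc-finger factor that recruits the NuRD repressor complex (chr2:168748332-168767201), had 6 sites, of which 2 were called in all 3 CTCF lists. The site 5.5 kb below had CTCF at 9.24 (wild type), 10.7 (InsCBS5-10) and 10.0 (DelCBS7-10), the 78.6, 97.2 and 97.3 percentiles. RAD21 was called there in the additional list, at 6.52, and not in InsCBS5-10. The site inside the gene had CTCF at 10.0, 7.06 and 4.82 with RAD21 at 6.19 and 4.48. Thus the stronger CTCF site of both mutants lacked a RAD21 call in InsCBS5-10 and the weaker one had it. The other 4 sites lie in the neighbour Atp9a, which encodes a membrane transporter, with values of 3.06 to 4.1. One of these, 9.3 kb below Sall4, was a wild-type CTCF peak of 3.35 with RAD21 of InsCBS5-10 at 2.93, the 1.6 percentile of that list, and no RAD21 in the additional list.

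Zfp42, a zinc-finger gene used as a reporter of the naive state (chr8:43295067-43307009), had the fewest sites. A single site, 26.7 kb above, was called in all 3 CTCF lists, at 11.2 (wild type), 8.80 (InsCBS5-10) and 7.40 (DelCBS7-10). The additional RAD21 list had 7.78 there, and RAD21 of InsCBS5-10 had no peak in the whole window. The second site was a wild-type peak of 3.16. A RAD21 peak of 4.07 in the additional list lay inside the gene without CTCF.

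Dppa5a, a small gene for a KH-domain RNA-binding protein (chr9:78367052-78368199), had 5 sites, 4 of them in all 3 CTCF lists. Wild-type values of these 4 were close together, from 8.10 to 10.1. The site 8.8 kb below had CTCF at 10.1, 9.62 and 6.32 with RAD21 at 8.25 and 7.91, and the site 47.3 kb below had 8.58, 8.51 and 6.67 with RAD21 at 5.44 and 8.12. The sites 26.5 kb below, in the glutathione transferase gene Gsta2, and 17.9 kb above were without RAD21 of InsCBS5-10 and had 4.93 and 7.81 in the additional list. A wild-type peak of 3.64 in Ddx43 was the fifth site.

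Lin28a (chr4:134003330-134019196) had 4 sites, 2 of them in all 3 CTCF lists and both with RAD21 in both RAD21 lists. The site 16.9 kb above had CTCF at 15.5 (wild type), 9.38 (InsCBS5-10) and 9.30 (DelCBS7-10) and RAD21 at 10.6 and 11. The site inside the gene, 5.5 kb from the nearest start, had CTCF at 10.7, 6.65 and 6.42 and RAD21 at 4.35 and 4.16. A site 1.4 kb below the gene was called in wild type (5.38) and InsCBS5-10 (3.33) but not in DelCBS7-10, and the weakest site, 24.4 kb above, was a wild-type peak of 2.75. The additional RAD21 list had 10 peaks near Lin28a, 7 of them without CTCF in any list and at most 4.76.

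Lin28b (chr10:45376617-45486314), the longer paralog, had 8 sites and only 3 in all 3 CTCF lists. The site 3.2 kb below the gene had CTCF at 12.2 (wild type), 7.23 (InsCBS5-10) and 6.73 (DelCBS7-10) and RAD21 at 6.13 and 8.81. A site inside the gene, near its upper end with a summit at 45485762, had 5.41, 3.77 and 4.49. Lin28b is on the minus strand, so that end is its 5′ end. The only Lin28b start in the promoter table lies 15.6 kb from this site. Another site, 32.0 kb below the gene in Bves, had 3.03, 3.66 and 3.49. Both these sites lacked RAD21 of InsCBS5-10 and had it in the additional list, at 3.61 and 3.18. In the Lin28b window, 2 sites called only in wild type, at 3.94 in Bves and 2.85 inside the gene, had RAD21 in both lists. It was at 5.47 and 5.26 in InsCBS5-10, although CTCF of InsCBS5-10 was not called there, and at 3.33 and 5.73 in the additional list. The remaining 3 sites were called in 1 list, at 2.93 to 4.03. Of 13 peaks of the additional RAD21 list, 8 were without CTCF, the strongest at 3.65.

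Of the 60 sites, 34 (56.7%, interval 43.2% to 69.4%) were called in all 3 CTCF lists, against 51.2% of sites near all genes. Another 14 (23.3%) were called in wild type only, against 22.6% near all genes. For DelCBS7-10 only this was 6 (10.0%), against 7.40%, and for InsCBS5-10 only 2 (3.33%), against 5.85%. For sites in all 3 CTCF lists or in a single list, the shares were thus near those of all genes. In 2 sites (3.33%, against 1.47% near all genes) both mutants had a peak and wild type had none. These were the internal Pou5f1 start and a site in Atp9a below Sall4. Wild type shared 1 site (1.67%, against 4.5%) with InsCBS5-10 alone, below Lin28a, and 1 (1.67%, against 6.98%) with DelCBS7-10 alone, in Gdf3. Counts this small were not tested against the background. The sites seen in wild type only had values of 2.75 to 3.94 there, while wild-type peaks found in both mutants ranged from 3.02 to 15.7 with a median of 9.43. The sites seen in DelCBS7-10 only ranged from 3.24 to 4.03. Sites called in some but not all lists reached higher values in a few cases: 5.38 in wild type below Lin28a (the 47.9 percentile), 5.14 in DelCBS7-10 in Gdf3 (46.7), and in InsCBS5-10 4.82 at the internal Pou5f1 start (37.4) and 4.71 above Dppa3 (35.1).

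By list, 15 of 51 wild-type peaks (29.4%, interval 17.5% to 43.8%) were not called in InsCBS5-10, against 34.6% near all genes, and the same number were not called in DelCBS7-10, against 31.7%. In the other direction, 4 of 39 InsCBS5-10 peaks (10.3%, interval 2.87% to 24.2%) were not called in wild type, against 11.9%. For DelCBS7-10 this was 8 of 43 (18.6%, interval 8.39% to 33.4%), against 13.5%. Between the mutants, 3 of 39 InsCBS5-10 peaks (7.69%, interval 1.62% to 20.9%) were not called in DelCBS7-10, against 16.5%. Each of these shares near all genes lies inside the interval for the 10 genes, so with the lists as deposited a difference from the background in sharing between genotypes was not detectable with these numbers of peaks. The wild-type list is the longest of the 3. When each list was reduced to its 19610 strongest peaks, which evens the lengths and drops weak peaks at once, 0 of 26 wild-type peaks near these genes were not called in InsCBS5-10 (interval 0% to 13.2%), against 18.0% near all genes, which is above that interval. For DelCBS7-10 it was 3 of 26 (11.5%, interval 2.45% to 30.2%), against 21.6%. These intervals treat the 26 peaks as independent, although they come from only 10 genes, and many shares were compared. The background was not matched for strength. CTCF peaks near the 10 genes had median percentiles of 60.0 (wild type), 71.4 (InsCBS5-10) and 68.0 (DelCBS7-10), against 51.9, 50.5 and 50.4 near all genes. For RAD21 the medians were 47.6 in InsCBS5-10 and 44.3 in the additional list, against 49.4 and 49.6. The parts of length and strength in these shares were not tested.

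**Figure D3:**
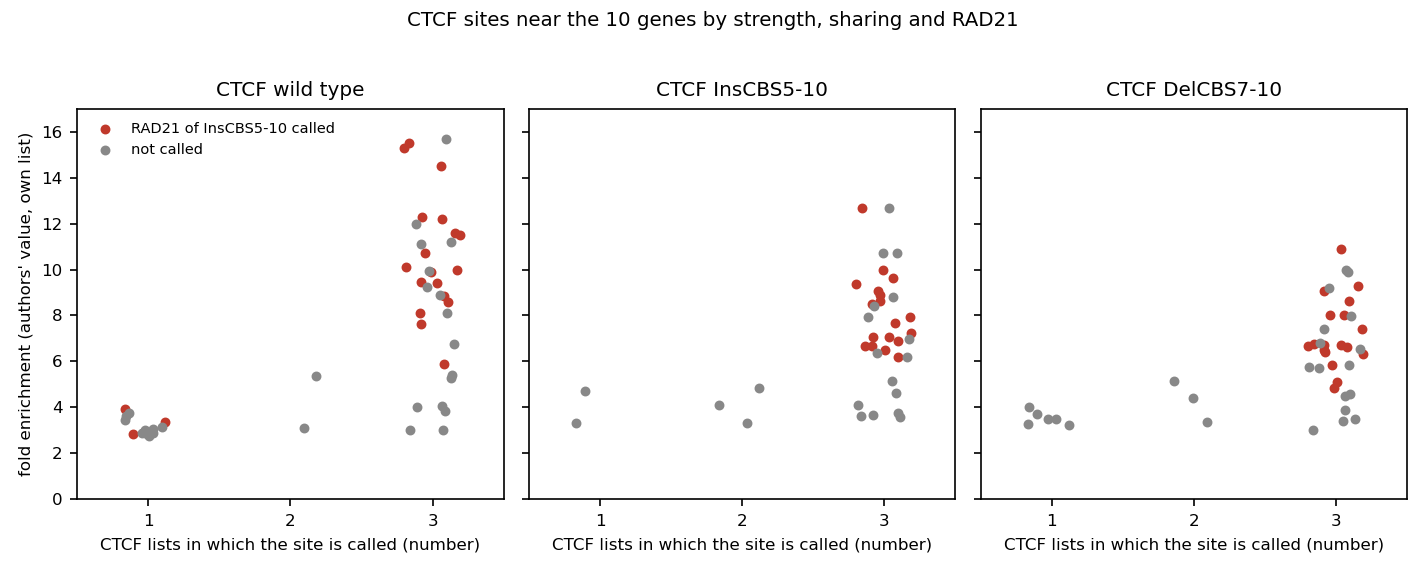
Fold enrichment of the CTCF sites near the 10 genes in each CTCF list, against the number of CTCF lists in which the site was called. Each point is a site, red where RAD21 of InsCBS5-10 was called and grey where not, points are spread sideways for legibility, and values are comparable within a panel only. Sites called in 1 list stay at or below 4.71, and sites called in 3 reach 15.7 in wild type.

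RAD21 of InsCBS5-10 was called at 18 of the 39 CTCF peaks of that genotype (46.2%, interval 30.1% to 62.8%), against 48.2% near all genes. Those 18 had CTCF values of 6.18 to 12.7 (median 7.80), and the 21 without RAD21 had 3.33 to 12.7 (median 4.82). Peaks with and without RAD21 therefore overlapped in strength, but no called CTCF peak of InsCBS5-10 under 6.18 had it. RAD21 of InsCBS5-10 was also called at 3 sites where CTCF of that genotype was not called. At the 18 sites the summits of both proteins were 5 to 74 bp apart, with a median of 33 bp. In the additional list, RAD21 was present at 38 of 51 wild-type CTCF peaks (74.5%, interval 60.4% to 85.7%), against 70.8%. The 13 without it were at 2.75 to 3.85, and the 38 with it at 2.85 to 15.7. Of the 34 sites in all 3 CTCF lists, 18 had RAD21 in both lists, 14 in the additional list only and 2 in neither, the latter being the weak Klf4 site near the start and the Esrrb site 37.4 kb above the gene. This split was not counted over all genes, so it cannot be set against the background.

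RAD21 without CTCF in any of the 3 CTCF lists was rare in the shorter RAD21 list. Of 22 RAD21 peaks of InsCBS5-10, 1 overlapped no CTCF peak of any list (4.55%, interval 0.115% to 22.8%), the Klf4 peak at 49.0 kb, against 4.03% near all genes. In the additional list 38 of 77 peaks did so (49.4%, interval 37.8% to 61.0%), against 42.3%. Their number ranged from 0 near Dppa5a to 8 near Esrrb and near Lin28b. The strongest were the Klf4 peak and a peak of 6.73 in Apobec1, 30.7 kb below Dppa3. At 3 further sites, near Lin28b and below Sall4, RAD21 of InsCBS5-10 overlapped CTCF of wild type only. RAD21 without CTCF of its own genotype was not counted over all genes. The genotype, the length of the list and its source differ between the RAD21 lists at once and cannot be told apart.

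**Figure D4:**
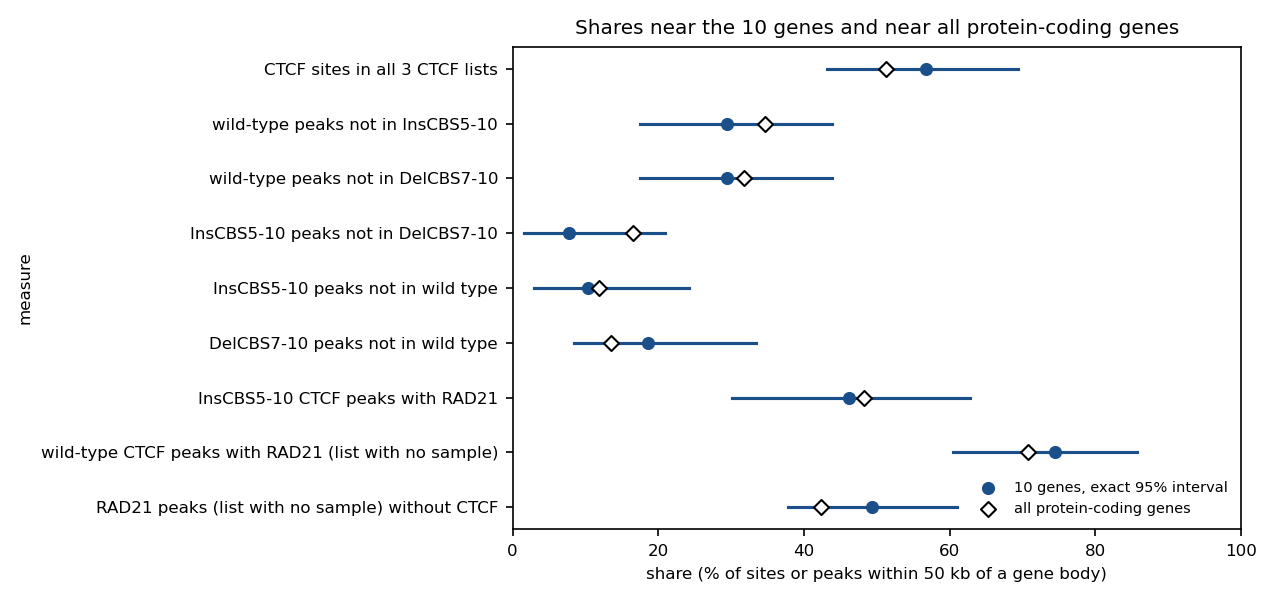
Shares of peaks or sites near the 10 genes (filled circles with exact 95% intervals) and near all protein-coding genes compared (open diamonds), in percent. Each row is 1 measure, and the diamond lies inside the interval in all 9 rows, for example 46.2% against 48.2% for InsCBS5-10 CTCF peaks with RAD21.

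The nearest CTCF site with RAD21 on each side describes the interval in which each gene lies, and sites inside the gene body are not counted as flanks. With CTCF and RAD21 of InsCBS5-10, 3 of the 10 genes had such a site on both sides within 50 kb, Pou5f1, Nanog and Dppa3 (30.0%, interval 6.67% to 65.2%), against 24.3% of all genes. With wild-type CTCF and the additional RAD21 list there were 5 (50.0%, interval 18.7% to 81.3%), against 48.6%. In InsCBS5-10 the distance between the flanking sites had a median of 160 kb for the 10 genes, against 189 kb for all genes, whose quartiles were 97.0 and 401 kb. With the other pair of lists the medians were 57.8 and 108 kb, and the quartiles of all genes were 54.8 and 231 kb.

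The tightest interval was that of Pou5f1, 29.8 kb in InsCBS5-10, with sites 21.8 kb below and 3.29 kb above. Only 2.90% of all genes had an interval as short in these lists. Dppa3 followed with 46.4 kb and Nanog with 50.6 kb, and both were the only protein-coding gene whole within it. The upper site of Dppa3 and the lower site of Nanog are the pair between these genes. Lin28a lay in 125 kb, together with Hmgn2 and Dhdds, Sall4 in 151 kb and Dppa5a in 169 kb. Lin28a and Sall4 each had 1 CTCF site with RAD21 inside the gene. Dppa5a had a close site 8.80 kb below and the next one 159 kb above, beyond Ooep, Ddx43, Cgas, Mto1 and Eef1a1. The order depended on the lists. With wild-type CTCF and the additional RAD21 list, Dppa3 had 19.4 kb, Nanog 20.1 kb, Dppa5a 27.8 kb, Pou5f1 29.2 kb and Lin28a 34.2 kb. Of all genes, 9.22% then had an interval as short as that of Pou5f1.

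The wider intervals were 426 kb for Esrrb, which also has 2 CTCF sites with RAD21 inside the gene, and 427 kb for Lin28b, with a site 3.16 kb below and the next 314 kb above. Klf4 had a site 12.3 kb below and the next one 690 kb above, an interval of 708 kb with no other whole gene in it. A further CTCF site with RAD21 lies inside Klf4 itself. Zfp42 had the widest interval, 2200 kb, with the flanking sites 1470 kb below and 719 kb above, wider than or as wide as those of 97.4% of all genes. It held 7 other genes, among them Triml1 and Triml2. With wild-type CTCF and the additional RAD21 list, the Zfp42 interval was 1510 kb, since its upper site was then the one at 26.7 kb. In these lists Esrrb lay in 270 kb, Lin28b in 253 kb and Klf4 in 708 kb. The same site flanked the gene in both pairs of lists on 11 of the 20 sides, on both sides for Pou5f1 and Klf4 and on neither for Sall4.

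**Figure D5:**
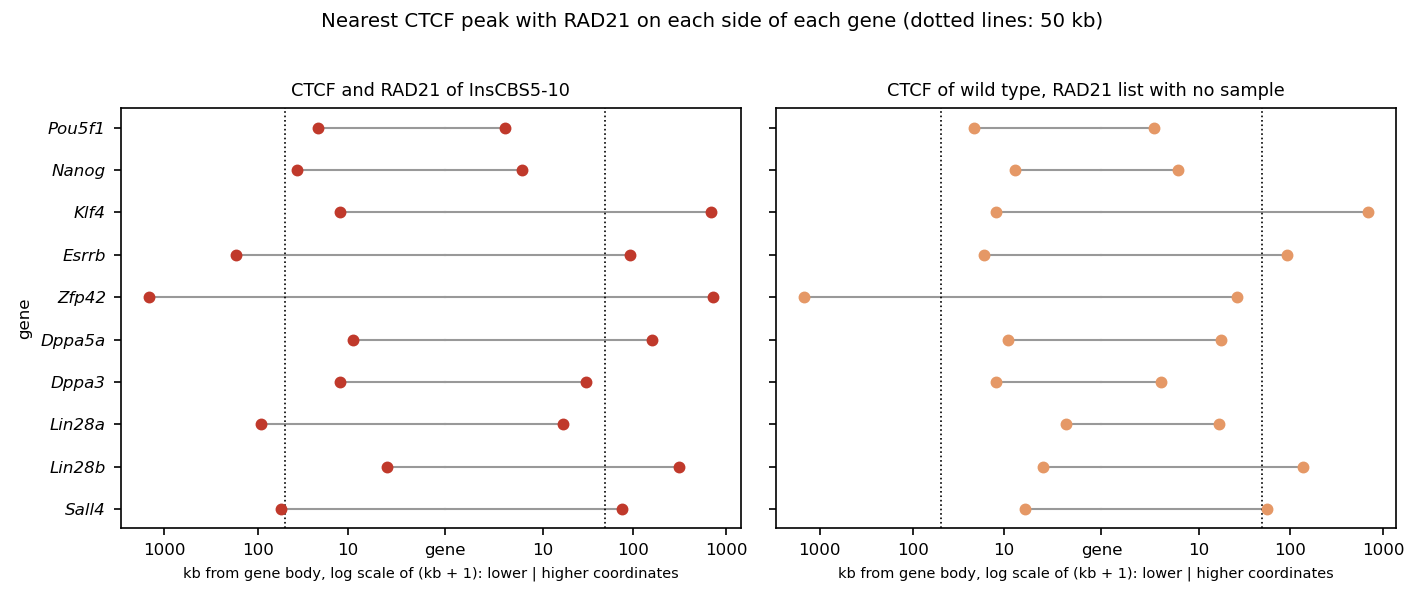
Distance in kb from each gene body to the nearest CTCF peak with RAD21 on either side, on a log scale of kb plus 1, for both pairs of lists. Points left of the centre lie at lower coordinates, and dotted lines mark 50 kb. Pou5f1, Nanog and Dppa3 have both points within the dotted lines in the left panel, and Zfp42 has the farthest points, at 1470 and 719 kb.

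The sites of the 10 genes were spread over the gene bodies and both flanks. Counting the shared pair for both genes, 14 sites were inside one of the 10 genes, 31 below and 17 above, and those called in all 3 CTCF lists numbered 8, 15 and 13. Of the 60 sites, 2 lay within 1 kb of a start site of the promoter table, the internal Pou5f1 site and the weaker Klf4 site. The table has no start at the upper end of Lin28b, where another site lay, and none for Sall4, Dppa3 and Dppa5a. About as many sites lay in a protein-coding gene (31) as between genes (29). Positions of sites were not counted over all genes, so these numbers have no background beside them.

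Other genes of the same network were taken from 4 lists, 63 genes outside chromosome 11 and Y. Of these, 52 (82.5%) had a CTCF peak within 50 kb in all 3 CTCF lists, close to the 83.2% of all genes, and 47 had RAD21 of InsCBS5-10. By list this was 23 of 28 genes of naive and general pluripotency, 9 of 13 of the formative and primed epiblast, 13 of 14 partners of Lin28 and let-7, and 7 of 8 of the Sall family and its partners. The most sites called in all 3 CTCF lists, 8 each, were near Lefty1, a Nodal inhibitor, Tcf7l1, a repressor in the Wnt pathway, and Chd4, the remodeller of NuRD. Genes with no CTCF peak of any list nearby included Zfp281, Sox3 and Tut4, the last a terminal uridylyl transferase that acts with Lin28 on let-7 precursors. Another 9 genes had CTCF peaks but no site common to the 3 lists: the naive genes Klf5, Tfcp2l1, Nr0b1 and Rif1, the epiblast genes Otx2, Fgf5, Etv5 and Sox11, and Sall1. A site common to all 3 CTCF lists was thus present near 50 of the 63 (79.4%), against 82.0% of all genes, and near each of the 10 genes described above.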

How the data were processed

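The deposited files are 5 peak lists in MACS2 narrowPeak form, 1 for each of the 4 samples and 1 RAD21 list with no sample of its own. Tools named in the submitters' processing notes are MACS2 2.2.7.1 and cutadapt 4.1, with mm10 as the build. Fold enrichment, as deposited, is a ratio of signal to local background, and the deposited −log10 q gives the peak caller's confidence, with a smallest value of 1.30 in each list. Which aligner, filters, control and calling options were used is something the sources used here do not say. Per the peak names in the files, chromosome 11 was edited, so it and Y were left out of the counts over all genes.

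Rows with the same chromosome, start and end were collapsed, keeping the summit of highest fold. A peak belongs to a gene when its summit lies within 50 kb of the gene body in RefSeq GRCm38.p6, the assembly of mm10. Overlap of 1 bp or more made peaks 1 site, and across lists the chain of overlapping peaks is a site with the strongest value per list. Tools were Python 3.11.15, pandas 2.3.3, numpy 2.4.6 and scipy 1.17.1. Scripts were tested on simulated data. With 1 library per group there is no test and no p-value, and read depth is unknown, so precision is given only by exact Clopper-Pearson 95% intervals. The additional RAD21 list is used by its peak names. All 10 genes are named. Of the other lists, the 3 genes with the most sites common to the CTCF lists, those without a CTCF peak and those without a common site are named, except for an item that is not reported here; Igf2bp1, on chromosome 11, was left out. The genes and lists were chosen with earlier results of these data known. Alternatives were windows of 20 and 100 kb, a −log10 q of 5 or more, other overlap rules and lists of equal length.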

Additional observations from a re-analysis of the deposited data

How the results depend on the processing

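The number of CTCF sites near the 10 genes was 60 with a window of 50 kb, 36 with 20 kb and 97 with 100 kb, and the number of genes flanked on both sides by CTCF with RAD21 in InsCBS5-10 was 3, 0 and 5. With a −log10 q of 5 or more there were 37 sites, 78.4% of them in all 3 CTCF lists, and the shares of wild-type peaks not called were 16.7% for InsCBS5-10 and 16.7% for DelCBS7-10, while 0% of InsCBS5-10 peaks were not called in DelCBS7-10. With lists of equal length, 19610 peaks each, there were 30 sites, 76.7% of them in all 3 CTCF lists, the shares of wild-type peaks not called were 0% and 11.5%, and 64.3% of InsCBS5-10 CTCF peaks had RAD21. Both settings keep fewer and stronger peaks by construction. Under the alternatives, all genes were counted only for wild-type peaks not called with equal lengths, 18.0% for InsCBS5-10 and 21.6% for DelCBS7-10. The other values have no share of all genes beside them, so a departure from the background cannot be read from them. Asking for summits within 100 bp or for an overlap of 50% of the shorter peak left all 9 totals within 1.5 times, or within the interval of the share. Of the 20 nearest sites, 3 moved with the stricter q: the upper site of Klf4 to 1150 kb, the lower of Dppa3 to 63.7 kb, which takes it out of the window, and the lower of Lin28a to 173 kb. With summits within 100 bp, 1 moved, the upper site of Dppa5a to 185 kb. Of 50 counts of peaks per gene and list, 27 moved with 20 kb, 25 with 100 kb, 16 with the stricter q and 21 with equal lengths. Read depth, a control for each library and replicates were not used here, so weak peaks called in 1 list cannot be placed. No paired analysis was possible because each group has 1 library and no result comes from a test.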
